A study of Homo sapiens with 12 samples.

Results

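The effect of TRIM35 siRNA was measured over TPC-1 and K1 together, established cell lines of human papillary thyroid cancer. All 12 libraries of the series entered the comparison, 6 of them from cells given siRNA against TRIM35 (3 TPC-1, 3 K1) and 6 from cells given a negative control siRNA (3 TPC-1, 3 K1). Both lines are labelled wild type, all cells were transfected, and RNA was taken 24 h later, so the comparison is between a TRIM35 siRNA and a control siRNA within the same 2 lines, with no untransfected cells. The labels give 1 batch for all libraries and do not say whether replicates came from separate cultures, so the spread behind every p-value is that of these libraries and may be technical. Each gene received 1 siRNA coefficient with the line as a block, which raises the number of libraries on each side from 3 to 6. This coefficient, called averaged here, leans toward the line with more counts of the gene. It is therefore not the plain mean of the values in the 2 lines. Because the libraries are bulk RNA, fewer cells with an mRNA and less of it per cell cannot be told apart.

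TRIM35 belongs to the tripartite motif family, whose members carry a RING domain and act as E3 ubiquitin ligases. It is known for binding the pyruvate kinase PKM2, an enzyme of the last step of glycolysis, and for acting on IRF7 and TRAF3 in antiviral signalling. A small interfering RNA is loaded into an Argonaute protein and guides cleavage of the matching mRNA, so the targeted mRNA itself is the first check of a knockdown library. The series title names proliferation, metastasis and glycolysis, and gene lists for those topics come first among the lists described here.

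Libraries held 16705044 to 22928861 counts and detected 22526 to 28045 genes. Of 61806 genes in the table, 17447 passed the filter on low counts. Mitochondrially encoded genes took between 2.19% and 4.65% of a library's counts. The thyroid transcription factor gene PAX8 was present in every library, at 17.83 to 20.65 FPKM (counts scaled to gene length and to the library total) in TPC-1 and 95.52 to 128.78 FPKM in K1. NKX2-1, another thyroid lineage factor, had 0 counts in all 12 libraries, and TG and TSHR, markers of differentiated thyrocytes, did not exceed 0.19 FPKM.

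TRIM35 mRNA (ENSG00000104228; hg38, chromosome 8, 27284886 to 27311272, minus strand) had a lower mean in the siRNA libraries of both lines, and the averaged difference did not pass the test. In TPC-1 it measured 2.86, 2.91 and 3.06 FPKM with control siRNA and 2.34, 2.56 and 2.58 FPKM with TRIM35 siRNA. In K1 it measured 1.51, 1.85 and 1.47 FPKM with control siRNA and 1.20, 1.49 and 1.53 FPKM with TRIM35 siRNA. The groups were apart in TPC-1 and overlapped in K1, where siRNA libraries 2 and 3 lay inside the control range. Averaged over the lines, the siRNA level was 86.2% of control (95% interval 73.2% to 101.7%), a log2 fold change of -0.21 (SE 0.11). By edgeR's quasi-likelihood test the unadjusted p was 0.0747 and the Benjamini-Hochberg adjusted p was 1.00. An exact permutation test on log2 CPM, two-sided and with the labels permuted within each line (400 arrangements, smallest possible p 0.005), gave a difference of -0.21 and p = 0.05. Levels of TRIM35 mRNA below 73.2% of control lie outside the interval. Between 85 and 244 counts per library lie behind these values.

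**Figure D1:**
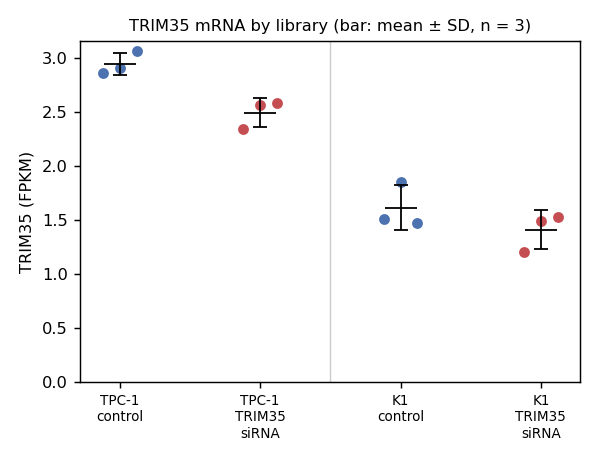
TRIM35 level in FPKM (vertical axis) in each of the 12 libraries, by line and siRNA (horizontal axis), with the mean and SD of 3 libraries as bars. The TPC-1 siRNA libraries (2.34 to 2.58 FPKM) lie below the TPC-1 controls (2.86 to 3.06 FPKM), while in K1 the siRNA (1.20 to 1.53 FPKM) and control libraries (1.47 to 1.85 FPKM) overlap.

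None of PKM, IRF7 and TRAF3, which are reported to work with TRIM35, passed the averaged test. PKM, which encodes the pyruvate kinase muscle isoforms, measured 256.77, 344.96 and 346.06 FPKM in TPC-1 with control siRNA and 282.11, 299.96 and 364.58 FPKM with TRIM35 siRNA. In K1 it measured 205.87, 176.97 and 171.00 FPKM with control siRNA and 165.58, 167.54 and 182.82 FPKM with TRIM35 siRNA. The groups overlapped in both lines, and the averaged PKM level was 96.6% of control (95% interval 81.4% to 114.8%). These counts are per gene and do not separate the PKM1 and PKM2 isoforms. IRF7, the transcription factor of the type I interferon response, had an averaged log2 fold change of 0.18 (SE 0.24), which is 113.5% of control with a 95% interval of 79.3% to 162.4%. TRAF3, an adaptor of antiviral signalling, lay at -0.01 (SE 0.09). Of 32 other tested TRIM family genes, 15 lay above and 17 below 0, with a median of -0.0025. TRIM59, TRIM26 and TRIM28 had the smallest unadjusted p of that family (0.119, 0.144 and 0.145), at 0.15, -0.14 and -0.12.

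No gene passed the averaged comparison. EdgeR called 0 of 17447 genes (0% of those tested) at an adjusted p under 0.05, and the smallest adjusted p was 1.000. At an unadjusted p under 0.05 there were 157 genes, where an even spread of p-values would put 872. Of these, 85 lay higher (0.487% of genes tested) and 72 lower (0.413%). At an unadjusted p under 0.01 there were 10 genes, and the smallest unadjusted p was 0.00107. DESeq2 called 0 genes, with 164 at an unadjusted p under 0.05, and limma with library weights called 0, with 1193. By edgeR the unadjusted count was 285 without K1 siRNA library 3 and 102 without TPC-1 control library 2. Across all genes 8649 coefficients lay above and 8798 below 0, with a median log2 fold change of -9e-04. The values within the lines had the same sign for 7956 of 17447 genes (45.6%). Bins of unadjusted p held more genes toward 1, from 157 between 0 and 0.05 to 1365 between 0.95 and 1.

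**Figure D2:**
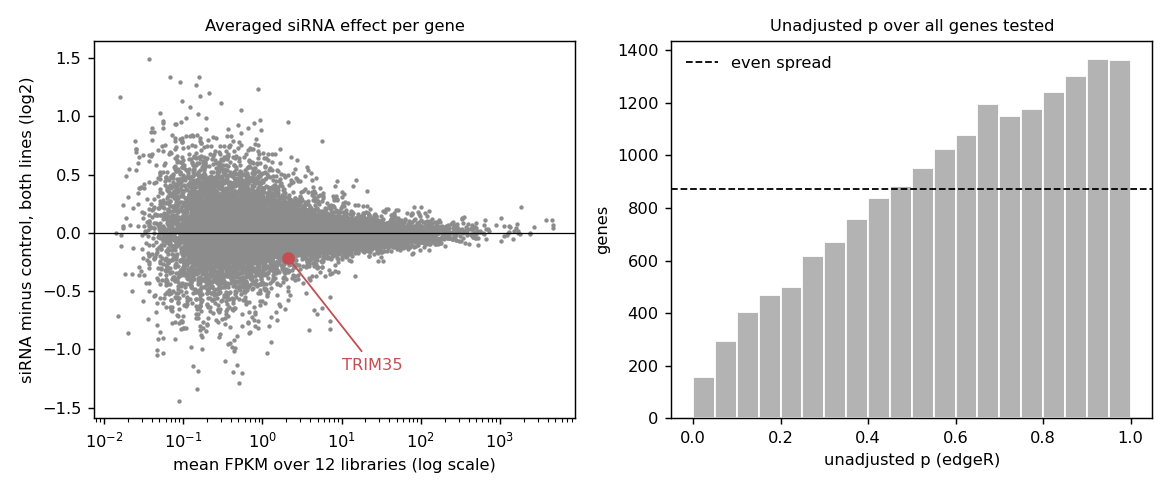
Left, the averaged siRNA minus control log2 fold change of each of 17447 genes (vertical axis) against its mean FPKM over the 12 libraries (log scale), with TRIM35 marked at -0.21. Right, the number of genes in each bin of unadjusted p, where the first bin holds 157 genes against 872 under an even spread (dashed).

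The averaged coefficient was measured more narrowly than the effect in either line. Among 6427 genes with a mean of at least 5 FPKM, the 95% interval stayed inside 1.5-fold of control for 6293 (97.9%). The share was 85.8% for TPC-1 alone and 88.9% for K1 alone. Inside 2-fold the shares were 99.7% for the average, 97.7% for TPC-1 and 98.6% for K1. The median SE of these genes was 0.102 on the log2 scale for the average and 0.15 in each line. The median size of the averaged log2 fold change, regardless of sign, was 0.0411, and 95% of these genes lay within 0.136. The largest was SNORD19C, a small nucleolar RNA, at -0.83 (SE 0.63).

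The siRNA accounted for little of the variation among the libraries. Over 11840 genes with a mean of at least 1 FPKM, the difference between the lines took 92.6% of the summed squares of log2 CPM. Libraries within groups took 6.54%, the siRNA 0.379%, and the part of the siRNA effect that differed between lines 0.444%. Per degree of freedom the siRNA term was 0.464 times and the line-by-siRNA term 0.543 times the spread within groups, so both were smaller than the spread between replicates. Within each line, the first principal component took 53.6% of the variance in TPC-1 and 67.5% in K1. It separated libraries of the same group. TPC-1 control libraries 1, 2 and 3 scored 0.16, -0.06 and -0.23 and siRNA libraries 1, 2 and 3 scored 0.25, 0.09 and -0.22. In K1 the control scores were 0.22, 0.0047 and -0.17 and the siRNA scores -0.22, -0.12 and 0.28.

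The genes with the smallest unadjusted p were of low level. Named here are the 12 protein coding genes in each direction with the smallest unadjusted p among genes with a mean of at least 1 FPKM and the same sign in both lines. The condition on sign held for 45.6% of all genes tested, so the shared sign of the named genes comes from the choice. FAM111B aside, their mean levels ran from 1.15 FPKM for PIK3IP1 to 6.91 FPKM for SLCO4A1. All 24 had an adjusted p of 1.00 by edgeR, so none of them passed.

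PIK3IP1 (chromosome 22, 31281594 to 31292534, minus strand), which encodes a transmembrane inhibitor of phosphoinositide 3-kinase, had the smallest p among them. It measured 1.25, 1.01 and 1.41 FPKM in TPC-1 with control siRNA and 2.15, 1.71 and 1.96 FPKM with TRIM35 siRNA. In K1 it measured 0.61, 0.64 and 0.68 FPKM with control siRNA and 0.86, 0.88 and 0.64 FPKM with TRIM35 siRNA. The TPC-1 groups were apart, and in K1 siRNA library 3 lay inside the control range on the FPKM scale, though not after TMM scaling of the counts. The averaged PIK3IP1 level was 141.5% of control (95% interval 115.5% to 173.3%), a log2 fold change of 0.50 (SE 0.14, unadjusted p = 0.00218 by edgeR). The value was 0.66 in TPC-1 and 0.31 in K1, and the difference between lines had an unadjusted p of 0.22.

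ZNF616 and ZNF267, which encode KRAB-type zinc finger proteins, were the next highest with a like size in both lines. ZNF616 (chromosome 19, 52113091 to 52139938, minus strand) measured 0.61, 0.73 and 0.90 FPKM in TPC-1 with control siRNA and 0.97, 0.89 and 1.20 FPKM with TRIM35 siRNA, and 1.87, 2.48 and 2.70 FPKM in K1 with control siRNA and 3.32, 2.84 and 2.78 FPKM with TRIM35 siRNA. ZNF616 groups touched in TPC-1, where siRNA library 2 lay just under control library 3, and were apart in K1; after TMM scaling they were apart in both lines. The averaged log2 fold change of ZNF616 was 0.40 (SE 0.13, unadjusted p = 0.00573 by edgeR). ZNF267 (chromosome 16, 31873807 to 31917357, plus strand) measured 3.73, 3.74 and 4.09 FPKM in TPC-1 with control siRNA and 4.38, 4.72 and 4.39 FPKM with TRIM35 siRNA. In K1 it measured 4.81, 5.40 and 5.58 FPKM with control siRNA and 6.05, 5.98 and 6.03 FPKM with TRIM35 siRNA. All ZNF267 siRNA libraries lay above all controls of their line, with an averaged log2 fold change of 0.21 (SE 0.08, unadjusted p = 0.0129 by edgeR) and values of 0.23 in TPC-1 and 0.20 in K1.

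Among the other 9 genes on the higher side, CDKN2B, the gene of the cell cycle inhibitor p15, had the largest averaged value at 0.56 (SE 0.21). CDKN2B was expressed in TPC-1 alone, at 1.70 to 2.37 FPKM in control and 2.40 to 3.60 FPKM in siRNA libraries, while K1 did not exceed 0.01 FPKM. The potassium channel gene KCNJ16 (0.34, SE 0.12) likewise took its averaged value from TPC-1, where it lay at 0.47 against 0.08 in K1. ASAP3, an Arf GTPase-activating protein, lay at 0.32 (SE 0.12), with 0.47 in TPC-1 and 0.16 in K1. The remaining 6 were BRINP1, STON1, N4BP2L1, WDR83, RBMS3 and ZNF10, at averaged log2 fold changes between 0.18 and 0.39.

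On the lower side, DAB2IP (chromosome 9, 121567057 to 121785530, plus strand), which encodes a Ras GTPase-activating scaffold, had the smallest p. It measured 2.07, 1.87 and 2.11 FPKM in TPC-1 with control siRNA and 1.96, 1.39 and 1.64 FPKM with TRIM35 siRNA, and 0.59, 0.70 and 0.65 FPKM in K1 with control siRNA and 0.53, 0.55 and 0.47 FPKM with TRIM35 siRNA. The groups were apart in K1, and in TPC-1 siRNA library 1 lay inside the control range. The averaged DAB2IP level was 81.3% of control (95% interval 70.5% to 93.8%), a log2 fold change of -0.30 (SE 0.10, unadjusted p = 0.00721 by edgeR), with -0.28 in TPC-1 and -0.32 in K1.

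STX1A and PPT2 were the lower genes of this group whose libraries did not overlap in either line after TMM scaling. STX1A (chromosome 7, 73699206 to 73719672, minus strand), the gene of the membrane fusion protein syntaxin 1A, measured 1.88, 2.22 and 2.05 FPKM in TPC-1 with control siRNA and 1.37, 1.69 and 1.59 FPKM with TRIM35 siRNA. In K1 STX1A measured 5.21, 6.72 and 5.82 FPKM with control siRNA and 5.28, 5.32 and 4.88 FPKM with TRIM35 siRNA, so that on the FPKM scale K1 control library 1 lay inside the siRNA range. The averaged STX1A value was -0.28 (SE 0.10, unadjusted p = 0.0131 by edgeR). PPT2 (chromosome 6, 32153441 to 32163678, plus strand), which encodes a lysosomal thioesterase, measured 2.88, 3.22 and 3.03 FPKM in TPC-1 with control siRNA and 2.51, 2.47 and 2.61 FPKM with TRIM35 siRNA. In K1 PPT2 measured 2.67, 2.68 and 2.77 FPKM with control siRNA and 2.13, 2.50 and 2.08 FPKM with TRIM35 siRNA. The averaged PPT2 value was -0.27 (SE 0.10, unadjusted p = 0.0149 by edgeR), with -0.26 in TPC-1 and -0.27 in K1. PPT2 overlaps the read-through gene PPT2-EGFL8 on the same strand, and how shared reads were counted is not given in the sources used here, so its level is uncertain.

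CHAF1A (chromosome 19, 4402640 to 4445018, plus strand), the large subunit of the histone chaperone CAF-1 that places nucleosomes behind replication forks, was the 1 member of the DNA replication list in this group. It measured 9.35, 10.65 and 11.26 FPKM in TPC-1 with control siRNA and 7.33, 8.57 and 10.39 FPKM with TRIM35 siRNA, and 1.78, 1.57 and 1.95 FPKM in K1 with control siRNA and 1.72, 1.37 and 1.06 FPKM with TRIM35 siRNA. The groups overlapped in both lines. The averaged CHAF1A level was 81.5% of control (95% interval 68.9% to 96.3%), a log2 fold change of -0.30 (SE 0.11, unadjusted p = 0.0196 by edgeR).

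The other 8 genes on the lower side lay between -0.37 and -0.19. NCAPD3, a condensin II subunit that compacts chromosomes in mitosis, lay at -0.37 (SE 0.15). FAM111B, a protease gene expressed with the cell cycle, lay at -0.34 (SE 0.15), with a level of 11.76 to 20.45 FPKM in TPC-1 and 0.52 to 1.07 FPKM in K1. The splicing-related SUGP1 lay at -0.26 (SE 0.09) and CHERP at -0.22 (SE 0.09). BCS1L, a chaperone of respiratory complex III, lay at -0.24 (SE 0.10), and ATG4B, a protease of autophagosome formation, at -0.19 (SE 0.08). GPATCH3 lay at -0.27 (SE 0.11) and the organic anion transporter SLCO4A1 at -0.22 (SE 0.09).

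**Figure D3:**
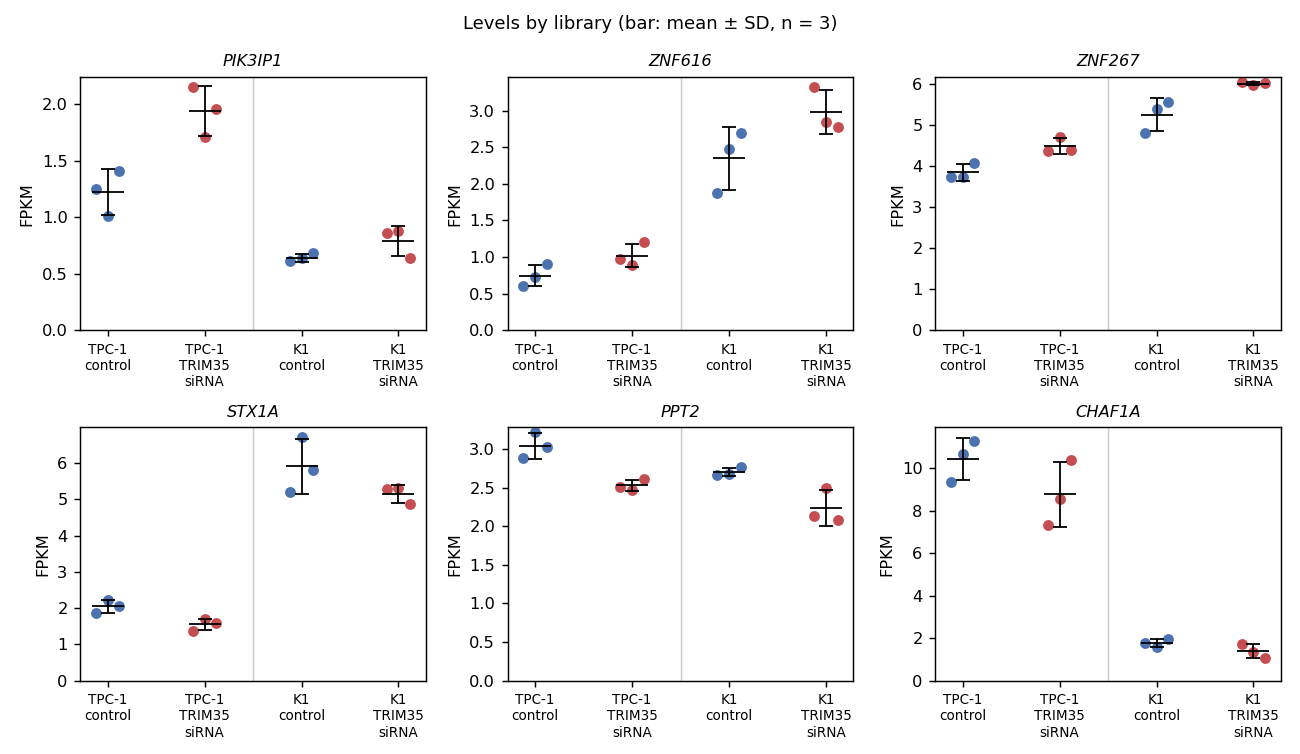
FPKM in each library (vertical axes, starting at 0) by line and siRNA (horizontal axes) for 3 genes on the higher side (PIK3IP1, ZNF616, ZNF267) and 3 on the lower side (STX1A, PPT2, CHAF1A), with the mean and SD of 3 libraries. ZNF267 siRNA libraries lie above the controls of their line in both lines, whereas CHAF1A groups overlap in both.

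A count of genes whose 3 siRNA libraries all lay on the same side of the 3 control libraries in both lines, on log2 CPM after TMM scaling, gave few genes in either direction. In 20 genes (0.115% of genes tested) the siRNA libraries were all higher in both lines, and in 10 (0.0573%) all lower. In 27 genes (0.155%) the groups were apart in both lines but in opposite directions. With labels exchangeable within each line (400 arrangements), a fraction of 0.005 of genes would be all higher or all lower in both lines. The shares found were below that fraction, so the separation does not set these genes apart. Of the 20, 12 were protein coding, and of the 10, 6 were. Of the 27, 17 were higher in TPC-1 and lower in K1, and 10 the reverse. These counts depend on 3 libraries a group: without 1 library they were 31 to 70 higher and 15 to 38 lower.

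The most abundant of the 12 was CYBRD1, an iron-reducing membrane enzyme. It measured 22.81, 21.19 and 22.72 FPKM in TPC-1 with control siRNA and 27.06, 24.69 and 24.26 FPKM with TRIM35 siRNA, and 57.90, 59.03 and 61.25 FPKM in K1 with control siRNA and 62.98, 63.13 and 66.30 FPKM with TRIM35 siRNA. The CYBRD1 groups were apart by small steps in both lines, and the averaged level was 111.2% of control (95% interval 99.8% to 123.9%, unadjusted p = 0.0537 by edgeR). TMEM135, a membrane protein gene, lay at 0.16 (SE 0.07), the histone gene H2AC6 at 0.21 (SE 0.09), TTC39C at 0.18 (SE 0.08) and the cell adhesion gene NRCAM at 0.28 (SE 0.12). TTC39C lay at 0.31 in TPC-1 and 0.06 in K1. NRCAM lay at 0.78 in TPC-1, where it was at 0.07 to 0.16 FPKM, and at 0.15 in K1. H2AC6 and other histone genes have near-identical copies, and how shared reads were counted is not given. On the lower side, RAB11FIP3, an effector of recycling endosomes, lay at -0.20 (SE 0.09), AP5S1, an adaptor subunit, at -0.17 (SE 0.10), SAMD15 at -0.42 (SE 0.16) and the sodium-proton exchanger SLC9A3 at -0.32 (SE 0.18).

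Glycolysis genes were centred near 0 in the averaged comparison. All 24 members of the list were tested, 10 lay above and 14 below 0, and the median log2 fold change was -0.02 (0.00 in TPC-1, -0.05 in K1), beside -9e-04 over all genes tested. No member passed, and 1 was at an unadjusted p under 0.05 on the lower side. LDHA, the lactate dehydrogenase subunit, measured 788.58, 764.87 and 732.82 FPKM in TPC-1 with control siRNA and 845.89, 822.63 and 785.37 FPKM with TRIM35 siRNA. In K1 it measured 169.16, 148.72 and 132.11 FPKM with control siRNA and 124.63, 126.05 and 168.14 FPKM with TRIM35 siRNA. LDHA groups overlapped in both lines, and the averaged level was 100.4% of control (95% interval 84.2% to 119.8%).

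HK2, the hexokinase that starts glycolysis, measured 25.15, 22.18 and 21.25 FPKM in TPC-1 with control siRNA and 24.00, 20.30 and 20.56 FPKM with TRIM35 siRNA, and 1.63, 1.59 and 1.66 FPKM in K1 with control siRNA and 1.77, 1.23 and 1.71 FPKM with TRIM35 siRNA. The HK2 groups overlapped in both lines, and the averaged level was 95.5% of control (82.8% to 110.1%). The glucose transporter SLC2A1 was at 104.1% (90.3% to 119.9%) and GAPDH at 101.1% (82.7% to 123.5%). ENO1, an enolase, was at 94.1% (78.3% to 113%) and PFKFB3, which makes the activator of phosphofructokinase, at 93.7% (83.4% to 105.3%). Each of these intervals, all at 95%, spans 100%.

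ALDOC was the 1 glycolysis gene at an unadjusted p under 0.05. This brain-type aldolase was barely expressed, at 0.39, 0.53 and 0.27 FPKM in TPC-1 with control siRNA and 0.25, 0.15 and 0.10 FPKM with TRIM35 siRNA. In K1 ALDOC measured 0.05, 0.02 and 0.05 FPKM with control siRNA and 0.02, 0.04 and 0.00 FPKM with TRIM35 siRNA. These values rest on 13 to 25 counts per library in TPC-1 control, 6 to 12 in TPC-1 siRNA, 1 to 3 in K1 control and 0 to 2 in K1 siRNA libraries. The ALDOC groups were apart in TPC-1 and overlapped in K1, with an averaged log2 fold change of -1.19 (SE 0.42, unadjusted p = 0.0123 and adjusted p = 1.00 by edgeR). SLC2A3, a glucose transporter, differed in level between the lines. It lay at 0.83 in TPC-1, where its level was 0.10 to 0.20 FPKM, and at 0.01 in K1, where it was 32.17 to 41.32 FPKM, and the averaged value was 0.17 (SE 0.12).

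Genes of cell proliferation lay below 0 more often than above, by small amounts that were within the spread between replicate libraries. Of 39 DNA replication genes 33 lay below and 6 above 0 (84.6% below, beside 50.4% of all genes tested), with a median of -0.08 (-0.11 in TPC-1, -0.08 in K1). The sign was the same in both lines for 23 of these 39 (59%), beside 45.6% of all genes tested. CHAF1A was the 1 member at an unadjusted p under 0.05. MCM6, a subunit of the replicative helicase, measured 51.74, 53.99 and 55.17 FPKM in TPC-1 with control siRNA and 40.22, 50.60 and 50.53 FPKM with TRIM35 siRNA. In K1 it measured 12.16, 11.58 and 11.61 FPKM with control siRNA and 11.17, 10.67 and 10.68 FPKM with TRIM35 siRNA. On FPKM, though not after TMM scaling, all MCM6 siRNA libraries lay below the controls of their line, and the averaged level was 90.1% of control (95% interval 79.5% to 102%, unadjusted p = 0.0948 by edgeR). MCM10, which loads polymerase at the origin, lay at -0.24 (SE 0.13).

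Of 35 mitosis genes 30 lay below and 5 above 0 (85.7% below), with a median of -0.05 (-0.02 in TPC-1, -0.10 in K1), and 0 were at an unadjusted p under 0.05. The sign was the same in both lines for 18 of these 35 (51.4%). CDC20, an activator of the anaphase-promoting complex, measured 67.86, 79.04 and 70.86 FPKM in TPC-1 with control siRNA and 66.60, 69.79 and 68.87 FPKM with TRIM35 siRNA. In K1 CDC20 measured 17.45, 13.49 and 12.23 FPKM with control siRNA and 10.53, 11.21 and 14.92 FPKM with TRIM35 siRNA, and the groups overlapped in both lines. The averaged value of CDC20 was -0.15 (SE 0.12), that of BIRC5, the gene of survivin, -0.15 (SE 0.13), and that of the mitotic cyclin CCNB2 -0.09 (SE 0.08). The 21 tested G1 cyclins, CDKs and E2F genes split into 9 above and 12 below 0 with a median of -0.04. CCND1, cyclin D1, lay at -0.17 (SE 0.11), and E2F1 at -0.15 (SE 0.13).

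For the DNA replication, mitosis and glycolysis lists, the mean by library overlapped between siRNA and control in both lines. On log2 CPM relative to the mean of the line's controls, the DNA replication list was -0.12, 0.08 and 0.04 for TPC-1 control libraries 1, 2 and 3. It was -0.34, -0.009 and -0.04 for TPC-1 siRNA libraries 1, 2 and 3. In K1 it lay at 0.09, -0.01 and -0.08 in control and -0.11, -0.10 and 0.09 in siRNA libraries. Thus K1 siRNA library 3 lay as high as any K1 control, and siRNA library 1 was the lowest in both lines. The mitosis list lay at -0.10, 0.04 and 0.06 in TPC-1 control and -0.14, 0.06 and 0.04 in TPC-1 siRNA libraries. In K1 the mitosis list lay at 0.13, 0.0017 and -0.13 in control and -0.22, -0.19 and 0.06 in siRNA libraries. The SD over control libraries, within lines, was 0.096 for DNA replication, 0.11 for mitosis and 0.112 for glycolysis, larger in size than each list's averaged median. In K1 these means ordered the libraries much as the first principal component did, with control library 1 and siRNA library 3 at the high end. With that component of each line as a covariate, an alternative chosen after the data had been seen, the medians were -0.06 for DNA replication, -0.03 for mitosis and -7e-04 for glycolysis. The component was computed with the siRNA difference left in, with a mean siRNA minus control score of 0.09 in TPC-1 and -0.04 in K1. Such a covariate can take out part of the siRNA effect itself, so no conclusion is drawn from these medians.

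**Figure D4:**
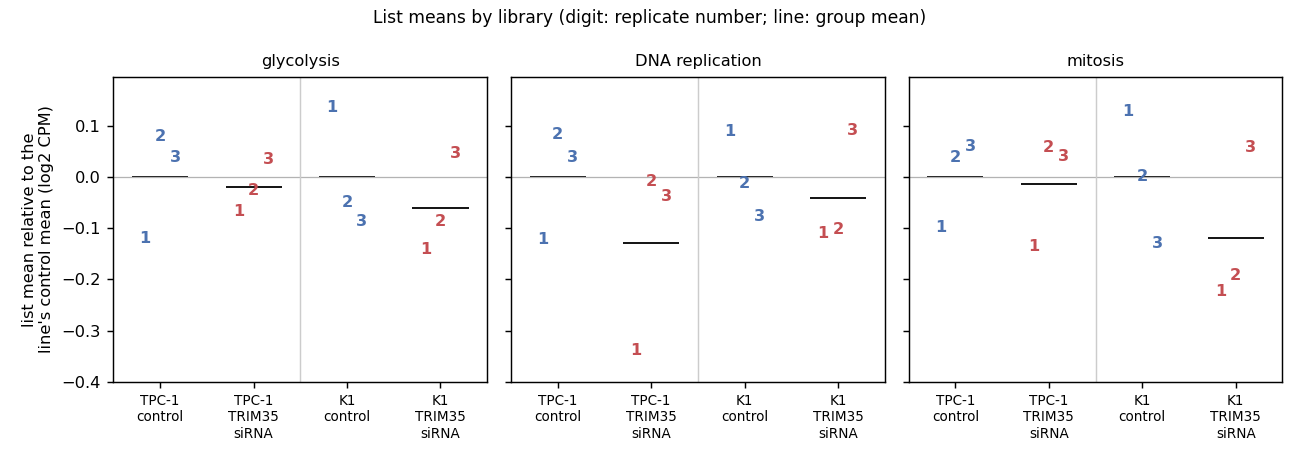
Mean log2 CPM of the glycolysis, DNA replication and mitosis lists in each library relative to the control mean of its line (vertical axis), by line and siRNA (horizontal axis). Digits are replicate numbers and black lines are group means. K1 control library 1 and siRNA library 3 are high in all 3 lists, and TPC-1 siRNA library 1 is lowest for DNA replication at -0.34.

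Genes linked to metastasis showed no common direction. Of 22 mesenchymal genes 11 lay above and 11 below 0 (median 0.02), and of 11 epithelial junction genes 6 lay above and 5 below (median 0.03). TGFBI, an extracellular matrix protein and the most abundant mesenchymal gene named, was at 104% of control (95% interval 92.6% to 116.8%). KRT7, an epithelial keratin, was at an unadjusted p under 0.05 (0.0239 by edgeR, adjusted p = 1.00). KRT7 measured 0.84, 0.95 and 0.74 FPKM in TPC-1 with control siRNA and 1.15, 1.19 and 1.04 FPKM with TRIM35 siRNA, and 0.75, 0.80 and 0.49 FPKM in K1 with control siRNA and 0.81, 1.01 and 0.82 FPKM with TRIM35 siRNA. On FPKM, though not after TMM scaling, the KRT7 siRNA libraries lay above the controls of their line in both lines, with an averaged value of 0.39 (SE 0.16). KRT7 was the highest of the epithelial junction genes, whose lowest averaged value was -0.44. Another keratin gene, KRT19, lay at -0.43.

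Invasion proteases split into 9 above and 11 below 0 among 20 tested (median -0.01). MMP14, a membrane-bound matrix metalloproteinase, measured 55.51, 58.51 and 57.92 FPKM in TPC-1 with control siRNA and 57.18, 47.45 and 54.56 FPKM with TRIM35 siRNA, and 93.17, 94.67 and 100.31 FPKM in K1 with control siRNA and 95.92, 97.22 and 72.20 FPKM with TRIM35 siRNA. The MMP14 groups overlapped in both lines and the averaged level was 92.2% of control (95% interval 82.2% to 103.3%). PLAUR, the urokinase receptor, was at 91.9% (80.2% to 105.2%). Adhesion and integrin genes split into 10 above and 10 below 0 (median 0.0023). ITGB8, an integrin subunit, was at 117% of control (101.4% to 135%, unadjusted p = 0.0333 by edgeR), and its groups overlapped in both lines, with 4.81 to 6.62 FPKM in K1 control and 5.74 to 7.55 FPKM in K1 siRNA libraries.

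Genes that handle small RNAs or sense foreign RNA had list medians near 0 and no member at an unadjusted p under 0.05. RNAi machinery had 4 members above and 9 below 0 of 13 (median -0.03). DGCR8, the partner of Drosha, lay at -0.23 (SE 0.12), with -0.43 in TPC-1 and -0.02 in K1, and AGO2, the Argonaute that cleaves, at -0.08 (SE 0.11). Interferon and RNA sensing genes had 13 above and 12 below 0 of 25 (median 0.0054). OAS2, an interferon-induced RNA sensor, lay at 0.24 (SE 0.14) and the double-stranded RNA receptor TLR3 at 0.18 (SE 0.14). Both arms received an siRNA, so a response to transfection that they share is not measured here.

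The remaining lists had averaged medians between -0.06 and 0.06, apart from the fibroblast markers. Cholesterol synthesis had 19 of 23 tested members above 0 (median 0.06) and hypoxia 14 of 19 (median 0.06). Their medians in TPC-1 were 0.12 and 0.09 and in K1 -0.0081 and -0.0058, so the average stands between a value in TPC-1 and one near 0 in K1. INSIG1, a feedback regulator of sterol synthesis, measured 45.10, 38.34 and 34.64 FPKM in TPC-1 with control siRNA and 60.34, 44.53 and 47.82 FPKM with TRIM35 siRNA, and 53.41, 50.71 and 47.27 FPKM in K1 with control siRNA and 47.85, 49.61 and 56.34 FPKM with TRIM35 siRNA. The INSIG1 groups overlapped in both lines, and the averaged value was 0.20 (SE 0.11, unadjusted p = 0.079 by edgeR). BNIP3L, a mitophagy receptor of the hypoxia list, lay at 0.13 (SE 0.09), with 0.26 in TPC-1 and -0.01 in K1. The mean of the hypoxia list, on log2 CPM relative to the line's controls, was -0.01, 0.02 and -0.004 in TPC-1 control and 0.16, 0.07 and 0.12 in TPC-1 siRNA libraries. In K1 that mean was 0.05, -0.0044 and -0.04 in control and -0.11, -0.02 and 0.09 in siRNA libraries. The siRNA libraries thus lay above the controls in TPC-1 and overlapped them in K1. The mean of the cholesterol synthesis list did likewise, by a small step in TPC-1. It was -0.108, 0.051 and 0.057 in TPC-1 control and 0.080, 0.064 and 0.220 in TPC-1 siRNA libraries.

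TGF-beta and YAP targets had 14 of 16 members above 0 (median 0.04), with medians of 0.06 in TPC-1 and 0.01 in K1 and largest values of 0.10 for the ligand TGFB2 (SE 0.10) and 0.09 for LTBP2 (SE 0.10). Heat shock genes had 10 of 13 below 0 (median -0.06) and ER chaperones 13 of 16 (median -0.04). The sign was the same in both lines for 6 of 13 heat shock genes and 8 of 16 ER chaperones. HSP90AB1, a cytosolic chaperone, lay at -0.10 (SE 0.14), and HYOU1, an ER chaperone, at -0.15 (SE 0.13). Of 22 ATF4 stress genes 12 lay below 0 (median -0.02). The amino acid transporter subunit SLC3A2 lay at -0.17 (SE 0.08, unadjusted p = 0.0616 by edgeR) and CHAC1 at -0.32 (SE 0.16, unadjusted p = 0.0623 by edgeR). Genes of p53 (median -0.0054), apoptosis (0.01), MAPK output (0.0076), NF-kB (0.01), NRF2 (-0.02) and autophagy (0.0017) were centred near 0. BBC3, the p53 target PUMA, lay highest of the p53 genes at 0.31 (SE 0.15, unadjusted p = 0.0536 by edgeR), and PLK3 lowest at -0.20.

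Ribosomal and mitochondrially encoded genes, whose share of a library varies with RNA composition, lay on opposite sides of 0 in the lines. Ribosomal protein genes had a median of 0.11 in TPC-1, -0.04 in K1 and 0.03 averaged, with 23 of 29 above 0. Mitochondrially encoded genes had 0.16, -0.08 and 0.04, with 8 of 13 above 0. Nuclear oxidative phosphorylation genes had 0.0038, -0.06 and -0.03, with 21 of 25 below 0. The sign was the same in both lines for 6 of those 25 (24%), 6 of 29 ribosomal and 1 of 13 mitochondrially encoded genes. By library the ribosomal list ranged from -0.34 to 0.33 in K1 control and from -0.44 to 0.41 in K1 siRNA libraries, wider than the difference between the group means. The part of this spread in other results was not tested.

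**Figure D5:**
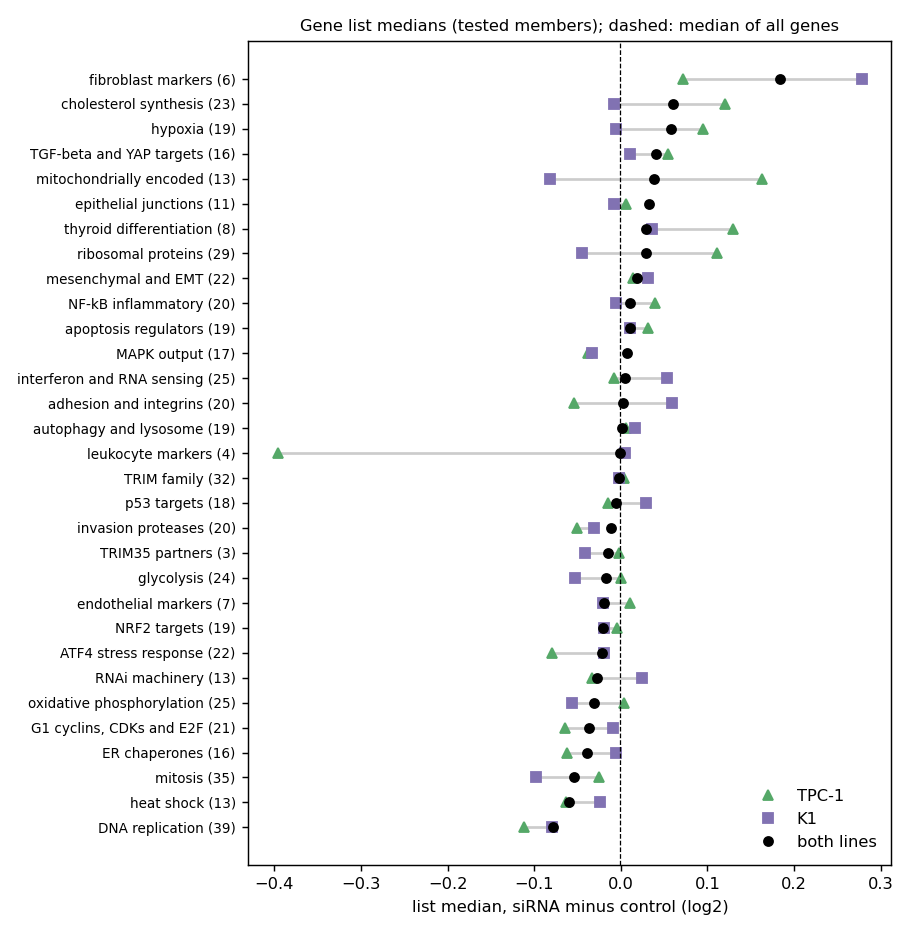
Median siRNA minus control log2 fold change (horizontal axis) of each of 31 gene lists (vertical axis, with the number of tested members), averaged over both lines (circles) and within TPC-1 (triangles) and K1 (squares); the dashed line is the median of all genes. The averaged median is lowest for DNA replication at -0.08 and highest for fibroblast markers at 0.18, and TPC-1 and K1 lie on opposite sides for the ribosomal (0.11 and -0.04) and mitochondrially encoded genes (0.16 and -0.08).

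The summed levels of markers of other cell types differed more between lines than between siRNA groups. The summed level of the 5 fibroblast markers was 1.57 to 2.16 FPKM in TPC-1 and 6.96 to 9.25 FPKM in K1 libraries. That of the 5 leukocyte markers was 0.13 to 0.64 FPKM in TPC-1 and 4.19 to 5.61 FPKM in K1, and that of the 4 endothelial markers 0.08 to 0.11 and 1.42 to 2.0 FPKM. In K1 most of each sum came from 1 gene. THY1 of the fibroblast markers was at 5.73 to 8.3 FPKM in K1 libraries. CD14 of the leukocyte markers was at 3.71 to 5.31 FPKM, and KDR of the endothelial markers at 1.35 to 1.9 FPKM. No other marker in these sums exceeded 0.49 FPKM in K1. CD3E and MS4A1 had 0 counts in all K1 libraries, and CDH5 did not exceed 1 count in any library. In the longer lists, filtering left 6 of 10 fibroblast, 4 of 17 leukocyte and 7 of 12 endothelial genes, of which 5, 2 and 2 lay above 0. Of 20 thyroid differentiation genes 8 were tested, 5 lay above and 3 below 0 (median 0.03), and FOXE1, a thyroid transcription factor, lay at 0.16 (SE 0.10). The fibroblast list had the largest averaged median (0.18, with 5 of 6 tested members above 0), and DCN, the proteoglycan decorin, was its 1 member at an unadjusted p under 0.05 (0.0421 by edgeR, adjusted p = 1.00). DCN had 0 counts in the 3 TPC-1 control libraries, 9 to 12 in the TPC-1 siRNA libraries, 36 to 57 in K1 control and 35 to 70 in K1 siRNA libraries. Its averaged value therefore rests on few counts. The mean of the fibroblast list, relative to the line's controls, was -0.03, 0.06 and -0.02 in TPC-1 control and 0.68, 0.36 and 0.43 in TPC-1 siRNA libraries, with no overlap. In K1 it was -0.03, -0.13 and 0.16 in control and 0.30, 0.26 and 0.07 in siRNA libraries, which overlapped. The median of the fibroblast list was 0.07 in TPC-1 and 0.28 in K1, and 3 of its 6 tested members had the same sign in both lines. DCN, at a log2 fold change of 6.42 in TPC-1 from few counts, is 1 of the 6 genes in the list mean. The TPC-1 separation of that mean is therefore not a shift of the whole list. The part of other cell types in the averaged values was not tested.

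The averaged coefficient can hide effects of opposite sign, so the difference between lines was tested gene by gene. For the difference, K1 minus TPC-1, edgeR called 0 genes and left 301 with an unadjusted p under 0.05. Within the lines it called 0 genes in either; an unadjusted p under 0.05 was found for 337 genes in TPC-1 and 136 in K1. Other tools made some calls: DESeq2 called 2 genes for the difference and 2 in TPC-1, and limma with library weights called 3 for the difference, 2 in TPC-1 and 688 in K1. Of the 10 genes with the smallest p for the difference in either direction at a mean of at least 1 FPKM, 8 had a TPC-1 control mean under 1 FPKM, so their TPC-1 values rest on few counts. The smallest adjusted p for the difference among the genes taken by the rule for names was 0.51, for DCN. Outside that rule, SULF1 and SLIT1, picked with their values known and low in counts, had an edgeR adjusted p of 0.07 for the difference. The exceptions with a higher level were KLF4 and CCDC121. KLF4, an epithelial transcription factor, measured 2.72, 3.25 and 2.80 FPKM in TPC-1 with control siRNA and 3.68, 3.08 and 3.36 FPKM with TRIM35 siRNA, and 2.07, 1.93 and 2.17 FPKM in K1 with control siRNA and 1.81, 1.49 and 1.27 FPKM with TRIM35 siRNA. The KLF4 siRNA libraries overlapped the controls in TPC-1 and lay below them in K1, and the averaged value was -0.10 (SE 0.13) from 0.20 in TPC-1 and -0.44 in K1. CCDC121 measured 2.91, 2.66 and 2.16 FPKM in TPC-1 with control siRNA and 3.39, 2.99 and 3.51 FPKM with TRIM35 siRNA, and 1.61, 1.61 and 1.68 FPKM in K1 with control siRNA and 1.13, 1.20 and 1.27 FPKM with TRIM35 siRNA. The CCDC121 groups were apart in both lines in opposite directions, and the averaged value was -0.01 (SE 0.15).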

How the data were processed

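RNA was sequenced from 12 libraries, 3 in each of 4 groups. The submitters' processing notes name cutadapt 1.9.1 and hg38. Not given in the sources used here were aligner, counter, strandedness and siRNA sequences. Per gene and library, the authors deposited raw counts beside FPKM in 1 table; the deposited FPKM values equal counts divided by gene size and by the summed counts. Totals were 16705044 to 22928861 counts. The title of 1 TPC-1 control library names another line, whereas its other labels give TPC-1, where it was kept.

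Counts were filtered with filterByExpr, scaled by TMM and fitted with edgeR 4.0.16 in R 4.3.3 (quasi-likelihood, line and siRNA additive, 9 residual degrees of freedom). P-values were adjusted over 17447 genes. Effects within lines and their difference came from a fit with 1 mean per group. SE is the absolute log2 value over the root of F, and intervals are at 95%. Biotypes came from GENCODE 29, which matched 58254 IDs. Scripts were tested on simulated data. Alternatives used DESeq2 1.42.0, limma 3.58.1, other filters and scalings, a replicate block, and each library left out.

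Named genes were TRIM35, 12 per direction by unadjusted p (protein coding, mean of at least 1 FPKM, same sign in both lines), all glycolysis genes and TRIM35 partners, and 3 of each other list by p. Up to 6 per direction with groups apart in both lines and 5 per direction by p for the difference were added. The comparison and the 31 lists were chosen with earlier results of these data known.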

Additional observations from a re-analysis of the deposited data

How the results depend on the processing

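The averaged comparison had 0 calls in 24 of 25 alternatives and 1 without a filter on low counts, CASP14 (adjusted p = 0.0441 by edgeR). TRIM35 stayed between -0.29 and -0.15 and was called in none, nor was any of 3696 values of 150 named genes. The averaged medians of DNA replication (-0.15 to -0.05) and mitosis (-0.11 to -0.02) kept their sign, and that of glycolysis ran from -0.09 to 0.02. Depth limits genes such as ALDOC and DCN.

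The number of genes at an unadjusted p under 0.05 (157) was 663 without a filter, 81 at a mean of at least 1 FPKM, 277 with 1 mean per group, 1193 with limma and library weights, 456 without K1 control and siRNA libraries 3 together, 774 with the first component of each line as a covariate (chosen after the data had been seen), and 102 to 285 without 1 library. Calls for the difference between lines numbered 4 without a filter, 2 with DESeq2, 3 with library weights, and 0 to 1 without 1 library. TPC-1 had 2 calls without a filter, 2 with DESeq2 and 2 with library weights. K1 had 2 without a filter and 688 with library weights, where K1 control library 2 and siRNA library 2 weighed 6.77 and 3.97 and siRNA library 3 weighed 0.25. Genes higher with no overlap in both lines (20) numbered 10 at a mean of at least 1 FPKM, 115 without both K1 libraries 3, 13 on FPKM (added after the data had been seen) and 31 to 70 without 1 library. Genes lower (10) numbered 27 without a filter, 4 at 1 FPKM, 81 without both K1 libraries 3 and 15 to 38 without 1 library. Fewer libraries make such separation easier by construction. For the other settings that changed a count, the cause was not tested.

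With TPC-1 alone, CCNB2 lay at 0.0026 and TLR3 at -0.0019. With K1 alone, HYOU1 lay at 0.0042, BNIP3L at -0.0067, MSMO1 at -0.0163 and MPP4 at 0.0363. Among named genes whose averaged value exceeded its SE, these 6 signs differ from the averaged ones, since the other line is left out. Genes nearer to 0, such as KLF4, CCDC121 and IRF7, also had another sign in 1 of the lines.

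With the replicate number as a block within lines, edgeR called 0 genes, 145 were at an unadjusted p under 0.05 and TRIM35 lay at -0.22. Control and siRNA libraries with the same number deviated together in TPC-1 (correlations 0.59, 0.21 and 0.65) and not in K1 (-0.66, 0.09 and -0.69). In K1 libraries with different numbers deviated together, control library 1 with siRNA library 3 (0.72) and control library 3 with siRNA library 1 (0.64). Whether the numbers stand for a pairing of libraries in either line was not tested. With the block and 1 siRNA effect per line, added after the data had been seen, edgeR called 0 genes in TPC-1 (343 at an unadjusted p under 0.05, against 337 without the block) and 0 in K1 (126 against 136). The block changed no call.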

Other observations

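Genes of very low count had the largest separations between siRNA and control libraries within a line, and were chosen after their values were seen. SULF1, an extracellular sulfatase, had 0 counts in each TPC-1 control library and 21, 24 and 23 in the TPC-1 siRNA libraries, while K1 had 6, 10 and 1 in control and 0, 0 and 1 in siRNA libraries. SLIT1, a secreted guidance protein, had 2, 2 and 1 counts in TPC-1 control and 18, 17 and 8 in TPC-1 siRNA libraries, and 14, 16 and 15 in K1 control and 0, 2 and 0 in K1 siRNA libraries. CASP14, a caspase of the epidermis, had 0 counts in 9 libraries and 7, 14 and 17 in the K1 siRNA libraries. All 3 lie at levels where a library holds few reads of the gene. CASP14 was removed by the filter on low counts and so did not enter the filtered tests. SULF1 and SLIT1 were kept and did not pass the averaged edgeR test. For the difference between lines, SULF1 and SLIT1 had an edgeR adjusted p of 0.07 each. DESeq2 called both for that difference (adjusted p = 0.000652 for SULF1 and 0.00351 for SLIT1), and SULF1 in TPC-1 (0.00694). Limma with library weights called both for the difference (3.39e-05 for SULF1 and 0.00245 for SLIT1) and in K1 (0.00533 each), and SULF1 in TPC-1 (0.00231). SULF1 and SLIT1 were picked with their values seen and passed the filter through the groups where they were high. No conclusion is drawn from these adjusted p-values.

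The smallest unadjusted p of the averaged comparison belonged to GORAB-AS1, an antisense RNA at -1.44 (0.00107 by edgeR, adjusted p = 1.00), with 18, 32 and 26 counts in K1 control, 11, 10 and 5 in K1 siRNA, 5, 4 and 2 in TPC-1 control and 2, 1 and 1 in TPC-1 siRNA libraries. OLMALINC, a long noncoding RNA, lay at 0.30 (unadjusted p = 0.0043 by edgeR). Without strand information, reads of GORAB-AS1 and of GORAB on the other strand cannot be told apart where they overlap.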
